A study of Mus musculus with 2 samples.

Results

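The 32 genes described here encode proteins that carry a cell through mitosis, from the cyclins and the kinase that start it to the checkpoint, spindle and cytokinesis proteins that complete it. They were taken by symbol from a list of 32 names among the 27998 genes of a single-cell count matrix. The list was chosen with earlier results of these data known. All 32 symbols were found, and each of them had at least 1 UMI (a unique molecular identifier, the tag that marks 1 captured RNA molecule) in each of the 2 libraries. Their levels were followed gene by gene in neuroblast-like, activated and quiescent (astrocyte-like) cells of the adult mouse brain.

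Mitosis begins when cyclin B binds and switches on the kinase Cdk1, after which chromosomes condense and a spindle of microtubules attaches to each centromere through the kinetochore. The spindle checkpoint holds the cell in metaphase until every kinetochore is attached, by restraining Cdc20, the activator of a ubiquitin ligase called the anaphase-promoting complex (APC/C). Once released, the APC/C marks securin and the cyclins for destruction, the sister chromatids part, and a contractile ring divides the cell. Most of these genes are transcribed in late S, G2 and M phase and are silent in resting cells, so that their RNA reads out how many cells of a population divide. In the subventricular zone (SVZ), the stem cell niche along the lateral ventricle, stem cells that share many genes with astrocytes are mostly at rest, activated stem cells and their progeny divide, and early neuroblasts still divide while they begin to differentiate.

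The study compared male C57BL/6 mice aged 22 months, with the tissue of 8 animals pooled, and male C57BL/6 mice aged 2 months, with the tissue of 4 animals pooled. The lateral SVZ was dissociated and cells that carried GLAST, an astrocyte and stem cell surface transporter, were sorted after cells bearing O4 (oligodendrocyte lineage), Ter119 (red cells) or CD45 (leukocytes) had been gated out. About 8000 sort events per library were loaded on a Chromium droplet instrument, which tags the 3' end of each RNA, and 1 library was made per age. Both libraries lie in 1 matrix, where a barcode suffix of 1 or 2 separates them; no label says which suffix belongs to which age, so they are called library 1 and library 2 and no age comparison is made. With 1 library per age there are no replicates, and no test was run between libraries or classes. The 95% intervals given below are exact Poisson intervals for levels and exact Clopper-Pearson intervals for shares, and cover counting error only.

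The matrix held 1849 barcodes with 10440891 UMIs in library 1 and 2088 barcodes with 13330251 UMIs in library 2. The 2 libraries shared 4 barcode sequences. After cells with over 10% mitochondrial UMIs and called doublets were removed, 1825 and 2064 cells remained and fell into 15 clusters, which were built without the 32 genes and without other S, G2 and M phase genes. Neuroblast-like cells numbered 344 in library 1 and 470 in library 2 (clusters 4, 7 and 8), activated-like cells 323 and 543 (clusters 1 and 6), and quiescent-like cells 708 and 594 (clusters 0 and 2). A marker was counted as raised where the cluster stood at least 1.5-fold above the other cells. The quiescent-like clusters raised 19 and 14 of 20 astrocyte markers, among them Aqp4, Htra1, Sparcl1 and Gfap, and hold resting stem cells and astrocytes together. The neuroblast-like clusters raised 18 to 21 of 21 markers, with Dlx5, Dlx6, Sp9, Dcx and Stmn2 in their lead. The activated-like clusters are the least sharply marked, with 6 and 8 of 18 markers raised and Gsx2 or Dll1 among their leading genes. Clusters were mixed unequally between libraries: cluster 1 held 157 of the activated-like cells of library 1 and 407 of those of library 2, cluster 7, the neuroblast-like cluster richest in the 32 genes, held 94 and 206 of the neuroblast-like cells, and cluster 0 held 514 and 299 of the quiescent-like cells. Smaller classes were oligodendrocyte-like (101 and 9 cells), oligodendrocyte precursor-like (16 and 31), ependymal-like (3 and 13) and microglia-like (2 and 4), and 328 and 400 cells were left unnamed.

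The 32 genes were abundant in the neuroblast-like and activated-like classes and scarce in the quiescent-like class. Together they made up 4535 (4430 to 4643) and 5731 (5642 to 5821) CPM (counts per 1000000, the UMIs of the genes over all UMIs of the class, scaled) in neuroblast-like cells of libraries 1 and 2. In activated-like cells they made up 3358 (3296 to 3421) and 4522 (4463 to 4581) CPM, and in quiescent-like cells 357 (335 to 381) and 698 (665 to 733) CPM. As sums over a class, the order was the same in both libraries and no intervals overlapped within a library. Between neuroblast-like and activated-like cells the direction turns round when cells are weighted equally, as given below. A sum over a class cannot tell a smaller number of dividing cells from less RNA in each, so counts per cell are given further on. The classes also differed in depth, with a median of 3425.5 and 4856.5 UMIs per neuroblast-like cell, 9863 and 8769 per activated-like cell, and 3507.5 and 3553.5 per quiescent-like cell.

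**Figure D1:**
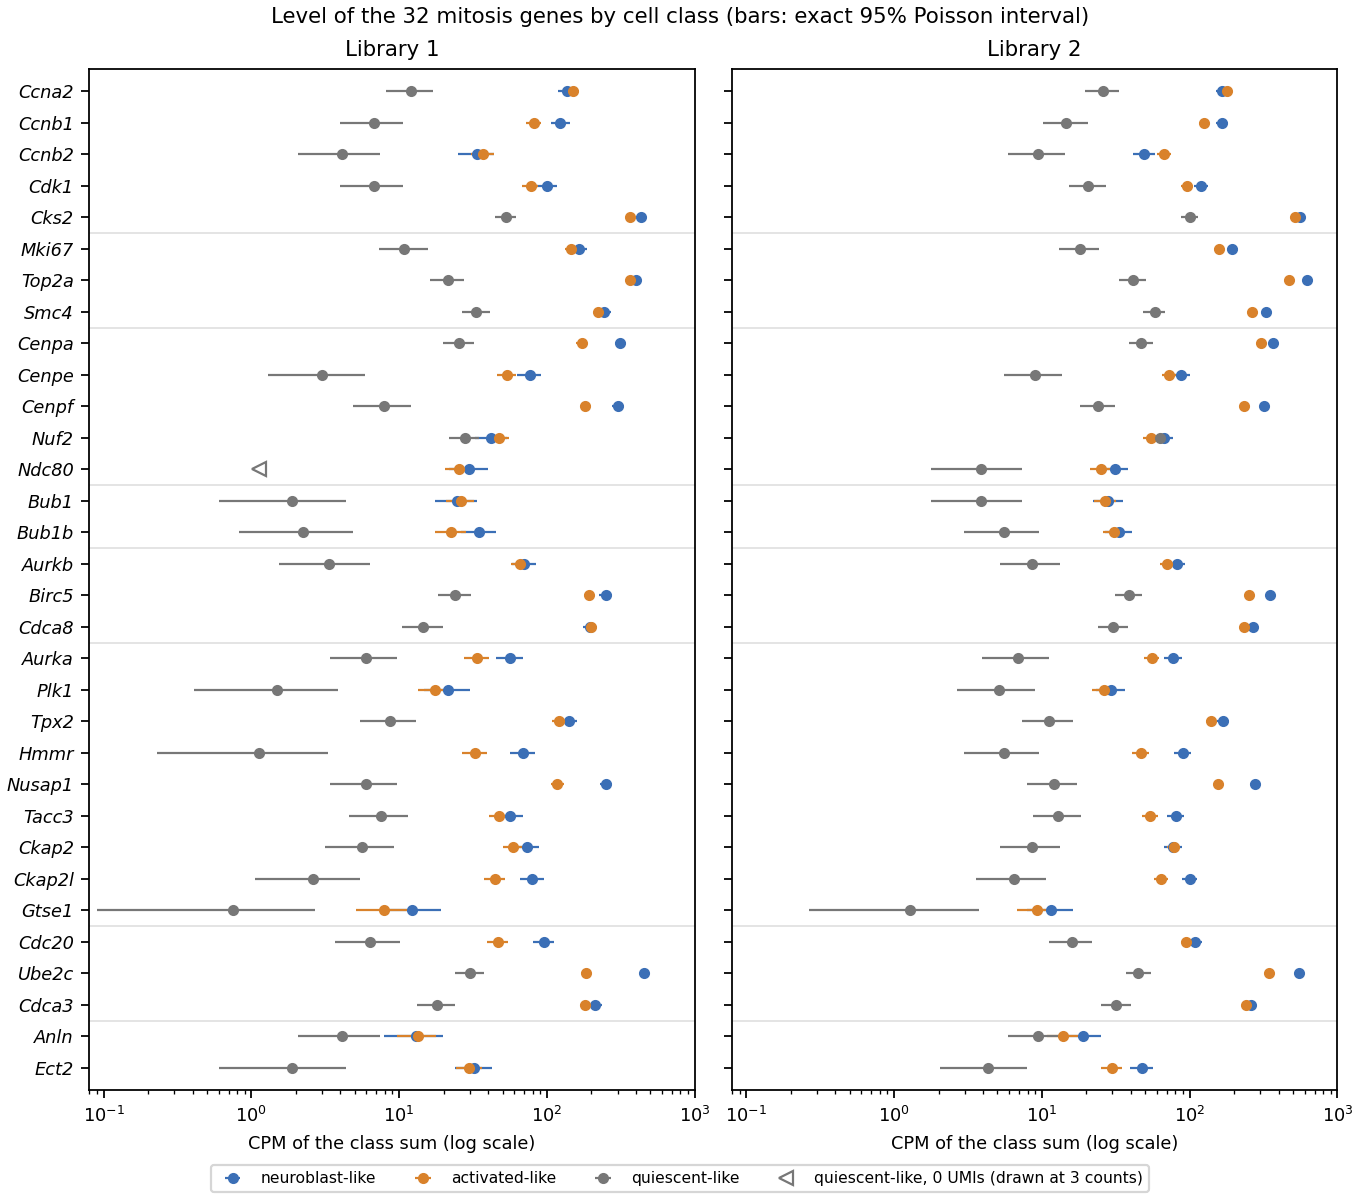
Level of each of the 32 genes (CPM, log axis) in neuroblast-like, activated-like and quiescent-like cells, with library 1 and library 2 in separate panels and genes grouped by role. The quiescent-like points lie far left of the others for every gene but Nuf2 and, less widely, Anln; the open triangle marks Ndc80 in quiescent-like cells of library 1, where no UMI was found and the 3-count floor is drawn.

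Set against quiescent-like cells, 30 of the 32 genes were at least 2-fold higher in activated-like cells in both libraries, where 13.5% of all 10885 measured genes were. At a clustering resolution of 2 the count was 22, and the library 1 median of these ratios was 1.88. In neuroblast-like cells 31 of 32 were at least 2-fold higher than in quiescent-like cells in both libraries, against 15.3% of all measured genes. The median log2 ratio of activated-like over quiescent-like cells was 3.54 in library 1 and 2.85 in library 2, beside medians of 0.03 and 0.00 over all genes. For neuroblast-like over quiescent-like cells the medians of the 32 were 3.90 and 3.15. The exceptions were Nuf2 in both comparisons and Anln in the activated-like one, and both are taken up below.

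Among the cyclins and their partners, Cks2, the small subunit that docks on Cdk1, had 431 (399 to 465) and 559 (532 to 588) CPM in neuroblast-like cells of libraries 1 and 2. It had 362 (342 to 383) and 514 (494 to 535) CPM in activated-like cells and 52.7 (44.4 to 62.1) and 99.9 (87.5 to 114) CPM in quiescent-like cells. Some Cks2 RNA was found in many quiescent-like cells, with UMIs in 116 of 708 and 168 of 594 of them. Ccna2, cyclin A2 of S and G2 phase, had 137 (119 to 156) and 167 (152 to 183) CPM in neuroblast-like cells, 150.0 (137 to 164) and 179 (167 to 191) CPM in activated-like cells and 11.96 (8.18 to 16.9) and 25.7 (19.6 to 33.1) CPM in quiescent-like cells. It was one of the few genes a little lower in neuroblast-like than in activated-like cells, with log2 ratios of −0.13 and −0.10, and the intervals of the 2 classes overlapped in both libraries. Ccnb2, a B-type cyclin, had 33.5 (25.1 to 44.0) and 49.4 (41.5 to 58.4) CPM in neuroblast-like cells, 36.9 (30.6 to 44.1) and 67.4 (60.4 to 75.04) CPM in activated-like cells and 4.11 (2.05 to 7.36) and 9.44 (5.91 to 14.3) CPM in quiescent-like cells. Its neuroblast over activated ratio was lower still, at −0.14 and −0.45. The other B-type cyclin went the opposite way: Ccnb1 had 123 and 165 CPM in neuroblast-like and 81.4 and 125 CPM in activated-like cells, a log2 ratio of 0.60 and 0.40. Cdk1 itself, the kinase, had 99.3 and 119 CPM in neuroblast-like, 77.4 and 96.1 CPM in activated-like and 6.73 and 20.6 CPM in quiescent-like cells.

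Of the genes for chromosome structure, Top2a, the topoisomerase that untangles sister chromatids, had 399 (368 to 431) and 621 (592 to 651) CPM in neuroblast-like cells, 367 (346 to 388) and 470.2 (451 to 489.7) CPM in activated-like cells and 21.3 (16.1 to 27.6) and 41.2 (33.4 to 50.3) CPM in quiescent-like cells. The activated over quiescent log2 ratios were 4.10 and 3.51, against medians of 3.54 and 2.85 over the 32. Smc4, a core subunit of the condensin ring, had 243 (219 to 269) and 331 (309.7 to 353) CPM in neuroblast-like cells, 222 (207 to 239) and 263 (249 to 277) CPM in activated-like cells and 33.3 (26.7 to 40.9) and 57.9 (48.5 to 68.5) CPM in quiescent-like cells, a narrower ratio of 2.74 and 2.18. Mki67, which coats mitotic chromosomes and is the usual stain for dividing cells, stood at 165 and 194 CPM in neuroblast-like cells, 145 and 158 CPM in activated-like cells and 10.8 and 18.01 CPM in quiescent-like cells. All 3 genes were higher in neuroblast-like than in activated-like cells in both libraries, by log2 ratios between 0.12 and 0.40.

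Of the kinetochore genes, all but Nuf2 followed the same order. Cenpa, the histone H3 variant that marks the centromere, had 314 (287 to 343) and 365 (343 to 388) CPM in neuroblast-like cells, 172 (158 to 187) and 303 (288 to 319) CPM in activated-like cells and 25.4 (19.7 to 32.2) and 47.2 (38.8 to 56.9) CPM in quiescent-like cells. Cenpf, a large protein of the outer kinetochore, had 302 (275 to 331) and 319.9 (299 to 342) CPM in neuroblast-like cells, 182 (168 to 197) and 231 (218 to 245) CPM in activated-like cells and 7.85 (4.86 to 11.997) and 24.0 (18.1 to 31.2) CPM in quiescent-like cells. Its activated over quiescent log2 ratios of 4.54 and 3.27 were wider than those of Cenpa, at 2.76 and 2.68. Cenpe, the kinesin that moves chromosomes to the spindle equator, followed Cenpf, with log2 ratios of 4.16 and 3.01. Ndc80, the subunit that grips the microtubule, had 29.7 and 31.0 CPM in neuroblast-like and 25.4 and 25.3 CPM in activated-like cells. No Ndc80 UMI was found in the 708 quiescent-like cells of library 1, which allows a level of up to 1.12 CPM at 3 counts, so that activated-like cells were at least 22.7-fold higher there. In library 2 the quiescent-like cells held 9 Ndc80 UMIs in 9 cells, or 3.86 CPM (1.77 to 7.33).

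Nuf2 (ENSMUSG00000026683), the partner that pairs with Ndc80 in the same rod-shaped complex, did not share this pattern. It had 41.9 (32.4 to 53.4) and 66.7 (57.5 to 77.1) CPM in neuroblast-like cells, 47.5 (40.3 to 55.5) and 54.9 (48.5 to 61.8) CPM in activated-like cells and 27.7 (21.7 to 34.7) and 63.0 (53.3 to 74.1) CPM in quiescent-like cells. The activated over quiescent log2 ratios were 0.78 and −0.20, on opposite sides of 0 in the libraries, with overlapping intervals in library 2. In quiescent-like cells Nuf2 UMIs were found in 70 of 708 cells (9.89%) of library 1 and in 119 of 594 (20.0%) of library 2, and Ndc80 UMIs in 0 and 9. Both genes were seen together in 0 and 5 quiescent-like cells, against 36 and 58 activated-like cells. After each cell was thinned to 2000 UMIs, quiescent-like cells with a Nuf2 UMI held a mean of 0.70 and 1.00 UMIs of the other 31 genes, and those without it 0.64 and 1.11. In neuroblast-like cells the corresponding means were 21.1 and 15.7 with Nuf2, against 4.58 and 6.88 without it. In activated-like cells they were 12.2 and 12.1 with Nuf2, against 5.72 and 7.19 without it. Nuf2 thus went with the other mitotic RNAs in neuroblast-like and activated-like cells, and not in quiescent-like cells. Its level was also high in ependymal-like cells, at 535 CPM (231 to 1054) in library 1 and 319 CPM (207 to 471) in library 2. That rests on 8 UMIs in 2 of 3 cells and on 25 UMIs in 12 of 13 cells. In the ependymal-like cells of library 1, 8 of the 9 UMIs of all 32 genes were Nuf2. Whether ependymal RNA carried into other droplets has a part in the quiescent-like level was not tested.

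The checkpoint kinase Bub1 had 24.5 (17.3 to 33.6) and 28.1 (22.2 to 35.1) CPM in neuroblast-like cells, 26.0 (20.8 to 32.1) and 26.7 (22.4 to 31.7) CPM in activated-like cells and 1.87 (0.607 to 4.36) and 3.86 (1.77 to 7.33) CPM in quiescent-like cells. Its near relative Bub1b, the BubR1 subunit of the complex that holds Cdc20, had 34.8 (26.2 to 45.5) and 33.2 (26.7 to 40.7) CPM in neuroblast-like cells, 22.4 (17.6 to 28.1) and 30.8 (26.1 to 36.1) CPM in activated-like cells and 2.24 (0.823 to 4.88) and 5.58 (2.97 to 9.53) CPM in quiescent-like cells. Both are thinly sampled, with 5 and 9 Bub1 UMIs and 6 and 13 Bub1b UMIs in all quiescent-like cells, yet the neuroblast-like and activated-like intervals lay wholly above the quiescent-like ones. Between neuroblast-like and activated-like cells the intervals of Bub1 overlapped in both libraries, and its log2 ratios were −0.09 and 0.07.

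The chromosomal passenger complex corrects wrong attachments and rides to the midzone at anaphase. Birc5 (survivin), a subunit that helps bring the complex to the centromere, had 249 (225 to 275) and 349 (327 to 371) CPM in neuroblast-like cells, 192 (177 to 207) and 254 (239.8 to 268) CPM in activated-like cells and 23.9 (18.4 to 30.5) and 39.0 (31.4 to 47.9) CPM in quiescent-like cells. Cdca8 (borealin), which binds survivin in the same complex, had 196 (175 to 219) and 269 (249.7 to 289) CPM in neuroblast-like cells, 198 (183 to 214) and 232 (218 to 245) CPM in activated-like cells and 14.6 (10.4 to 19.9) and 30.5 (23.8 to 38.4) CPM in quiescent-like cells. The kinase of the complex, Aurkb, had 70.3 and 82.2 CPM in neuroblast-like cells, 65.3 and 70.0 CPM in activated-like cells and 3.36 and 8.58 CPM in quiescent-like cells. The activated over quiescent folds of the 3 subunits lay between 6.50 (Birc5 in library 2) and 19.4 (Aurkb in library 1).

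Spindle assembly genes included some of the widest differences. Nusap1, which bundles spindle microtubules near chromosomes, had 251 (227 to 277) and 276 (257 to 296) CPM in neuroblast-like cells, 117 (106 to 129.6) and 156 (145 to 167) CPM in activated-like cells and 5.98 (3.42 to 9.71) and 12.01 (7.98 to 17.4) CPM in quiescent-like cells. The activated over quiescent log2 ratios of Nusap1 were 4.29 and 3.70. Tpx2, which activates and localizes the kinase Aurka, had 140.0 (122 to 159.9) and 168 (153 to 184) CPM in neuroblast-like cells, 120.4 (109 to 133) and 139 (129 to 149.6) CPM in activated-like cells and 8.60 (5.45 to 12.9) and 11.2 (7.28 to 16.3) CPM in quiescent-like cells. Hmmr, a microtubule-binding protein of the spindle pole, had 69.0 and 89.4 CPM in neuroblast-like and 32.7 and 46.6 CPM in activated-like cells, while quiescent-like cells held 3 and 13 UMIs in all. Aurka, the centrosome kinase, had 56.1 and 77.2 CPM in neuroblast-like cells, 33.6 and 55.5 CPM in activated-like cells and 5.98 and 6.86 CPM in quiescent-like cells, and was the one gene of this group with a narrower activated over quiescent ratio in library 1 than in library 2, at 2.49 and 3.01. Plk1, the kinase that drives centrosome maturation, had activated over quiescent log2 ratios of 3.55 and 2.34. The spindle proteins Tacc3, Ckap2 and Ckap2l had activated over quiescent log2 ratios between 2.67 and 4.08 in library 1 and between 2.07 and 3.32 in library 2. Gtse1, another spindle protein, was the least sampled of all 32, with 12.3 and 11.5 CPM in neuroblast-like cells, 7.86 and 9.31 CPM in activated-like cells and only 2 and 3 UMIs in quiescent-like cells.

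Of the genes of mitotic exit, Ube2c (ENSMUSG00000001403), the ubiquitin-conjugating enzyme that serves the APC/C, had 457 (424 to 492) and 549 (522 to 577) CPM in neuroblast-like cells, 184 (169 to 199) and 343 (327 to 359) CPM in activated-like cells and 29.9 (23.7 to 37.2) and 45.0 (36.8 to 54.5) CPM in quiescent-like cells. Cdca3, a mitotic entry factor that is itself degraded after mitosis, had 211 (189 to 235) and 261 (243 to 281) CPM in neuroblast-like cells, 180.3 (166 to 195) and 239 (226 to 253) CPM in activated-like cells and 17.9 (13.2 to 23.8) and 31.7 (24.9 to 39.8) CPM in quiescent-like cells. Cdc20, the APC/C activator held by the checkpoint, had 95.5 (80.7 to 112) and 109 (97.0 to 122) CPM in neuroblast-like cells, 46.6 (39.5 to 54.5) and 95.1 (86.7 to 104) CPM in activated-like cells and 6.35 (3.70 to 10.2) and 15.9 (11.2 to 21.9) CPM in quiescent-like cells. Cdc20 and Ube2c stood further above activated-like cells in the neuroblast-like cells of library 1 than of library 2, with log2 ratios of 1.04 and 0.20 for Cdc20 and 1.31 and 0.68 for Ube2c.

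Of the 2 cytokinesis genes, Ect2, the exchange factor that switches on RhoA at the division plane, had 32.3 (23.9 to 42.5) and 47.2 (39.5 to 56.1) CPM in neuroblast-like cells, 29.6 (24.1 to 36.1) and 29.8 (25.1 to 35.0) CPM in activated-like cells and 1.87 (0.607 to 4.36) and 4.29 (2.06 to 7.89) CPM in quiescent-like cells. Anln (anillin), the scaffold of the contractile ring, had 12.9 (7.88 to 19.9) and 19.1 (14.3 to 25.002) CPM in neuroblast-like cells, 13.3 (9.67 to 17.9) and 14.0 (10.9 to 17.7) CPM in activated-like cells and 4.11 (2.05 to 7.36) and 9.44 (5.91 to 14.3) CPM in quiescent-like cells. Its activated over quiescent log2 ratios were 1.69 and 0.57, the lowest after Nuf2, and the intervals of those 2 classes overlapped in library 2. Anln was highest outside the 3 classes. Oligodendrocyte-like cells had 288 CPM (243 to 340) in library 1, with UMIs in 64 of 101 cells, and 334 CPM (191 to 543) in library 2, with UMIs in 6 of 9 cells. Anillin is known as a component of central nervous system myelin as well as of the contractile ring.

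The 32 genes lie on 14 chromosomes, and 17 of them overlap another annotated gene in GENCODE M21, and whether the counting used strand is not given in the sources used here. Ccna2, Cdc20, Ube2c, Nusap1, Tacc3 and Cdca8 each overlap a protein-coding gene on the opposite strand (Exosc9, Elovl1, Tnnc2, Oip5, Tmem129 and 9930104L06Rik), and their levels are less certain for that reason. The other neighbours are small or noncoding RNAs, a pseudogene and unclassified transcripts.

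The promoters of these genes share short sequence elements that the choice of genes did not use. Genes of G2 and M phase are known to be held down in resting cells by the DREAM complex, which binds the cell cycle genes homology region (CHR, TTTGAA or TTCGAA), and to be switched on through CCAAT boxes bound by NF-Y. Promoters of 28 of the 32 genes were in the RefSeq table for GRCm38.p6, each 250 bases before to 50 bases after a transcript start. A CHR on either strand was found in 20 of 28 (71.4%), against 21.7% of the 27025 genes of the table. A CCAAT on either strand was found in 22 of 28 (78.6%), against 41.1% of all, and at 2 or more places in 18 of 28 (64.3%), against 13.3%. Both elements occurred together in 18 of 28 (64.3%), against 8.61% of all genes, while the E2F-type letters TTCCCGC occurred in 0 of 28, against 5.29%. Nuf2, Nusap1, Tacc3 and Birc5 held neither CHR nor CCAAT (14.3% of the 28, against 46.9% of all genes). A match of letters is a description of the window and says nothing of what binds there.

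Promoter stretches of 7 genes are shown from RefSeq, 130 bases before to 20 bases after the start, read along the strand of the gene, with letters in capitals that match the CHR or the CCAAT box on either strand. On the opposite strand these read as TTCAAA for the CHR and ATTGG for the box. Cdc20, Ube2c, Cdk1, Top2a, Hmmr and Ccnb2 are shown as carriers of the elements, with a CHR close to the start and CCAAT before it. Nuf2 is shown as a gene with neither. Nusap1, Tacc3 and Birc5 also had neither, yet were at least 2-fold higher in activated-like than in quiescent-like cells in both libraries. Anln, the other exception in level, held a CHR and no CCAAT. Whether these elements go with the level of a gene was not tested. The stretches lie on GRCm38.p6 at chr4:118437324-118437473 (minus strand) for Cdc20, chr2:164769799-164769948 (plus) for Ube2c, chr10:69352893-69353042 (minus) for Cdk1, chr11:99024170-99024319 (minus) for Top2a, chr11:40733418-40733567 (minus) for Hmmr, chr9:70421535-70421684 (minus) for Ccnb2 and chr1:169531445-169531594 (minus) for Nuf2.
Cdc20: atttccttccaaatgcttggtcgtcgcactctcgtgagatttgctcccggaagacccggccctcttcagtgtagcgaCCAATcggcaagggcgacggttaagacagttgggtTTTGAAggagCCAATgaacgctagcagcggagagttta
Ube2c: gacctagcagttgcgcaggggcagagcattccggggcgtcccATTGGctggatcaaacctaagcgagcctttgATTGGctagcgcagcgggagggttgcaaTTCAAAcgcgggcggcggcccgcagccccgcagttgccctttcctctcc
Cdk1: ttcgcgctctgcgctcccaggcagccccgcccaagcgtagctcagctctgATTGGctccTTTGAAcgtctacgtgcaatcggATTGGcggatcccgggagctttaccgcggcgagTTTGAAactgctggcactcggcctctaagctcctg
Top2a: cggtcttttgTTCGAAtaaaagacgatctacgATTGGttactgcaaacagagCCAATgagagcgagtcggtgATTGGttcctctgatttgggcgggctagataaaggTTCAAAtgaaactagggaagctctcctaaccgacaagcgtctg
Hmmr: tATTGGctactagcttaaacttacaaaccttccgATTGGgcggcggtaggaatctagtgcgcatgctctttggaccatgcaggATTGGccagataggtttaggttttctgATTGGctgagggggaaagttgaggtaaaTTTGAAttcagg
Ccnb2: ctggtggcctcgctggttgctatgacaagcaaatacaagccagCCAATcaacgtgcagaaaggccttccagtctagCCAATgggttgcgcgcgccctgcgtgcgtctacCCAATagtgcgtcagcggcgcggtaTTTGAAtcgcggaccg
Nuf2: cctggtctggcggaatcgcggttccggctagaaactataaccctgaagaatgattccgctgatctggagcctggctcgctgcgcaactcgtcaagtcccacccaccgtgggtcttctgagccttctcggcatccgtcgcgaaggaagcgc

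**Figure D2:**
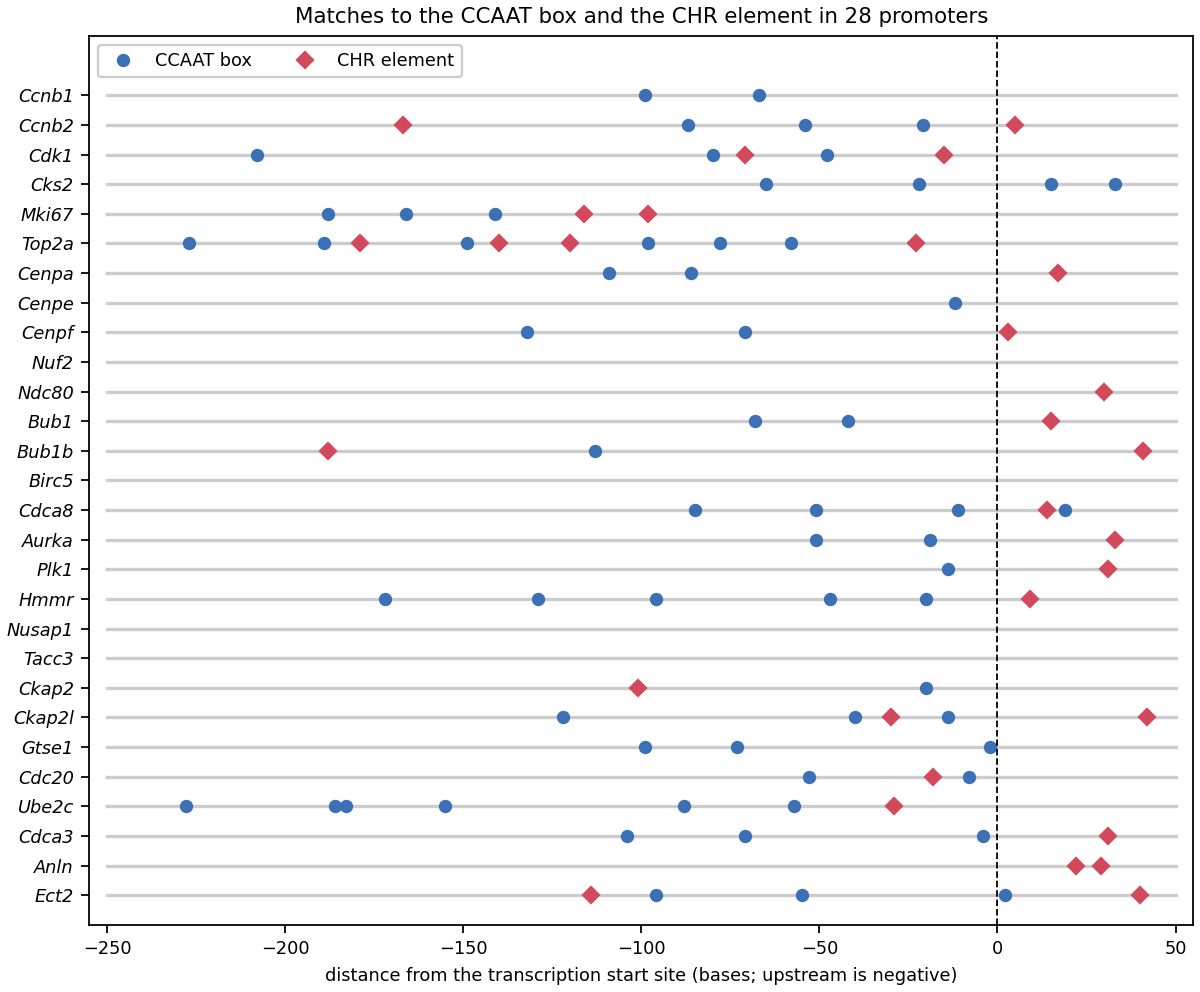
Matches to the CHR and to CCAAT by distance from the transcript start (bases) in the promoters of 28 genes, 1 row per gene. CCAAT matches lie mostly upstream of the start, and CHR matches on both sides of it; Nuf2, Nusap1, Tacc3 and Birc5 have none.

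Counts per cell showed how the class sums arose. With each cell thinned to 2000 UMIs, 29.3% of neuroblast-like cells in library 1 (92 of 314, interval 24.3 to 34.7%) and 48.9% in library 2 (223 of 456, 44.2 to 53.6%) held at least 3 UMIs of the 32 genes. Among activated-like cells the shares were 61.0% (197 of 323, 55.4 to 66.3%) and 66.1% (359 of 543, 62.0 to 70.1%). Among quiescent-like cells they were 3.33% (21 of 630, 2.07 to 5.05%) and 11.4% (64 of 559, 8.93 to 14.4%). Neuroblast-like cells thus held the higher summed level in a smaller share of their cells than activated-like cells did. Before thinning the shares were 37.2 and 58.9% in neuroblast-like, 91.0 and 96.7% in activated-like, and 13.7 and 36.5% in quiescent-like cells. Cells shallower than 2000 UMIs were left out: 30 and 14 neuroblast-like, 0 activated-like in either library, and 78 and 35 quiescent-like. The share depends on where clusters are drawn, since the activated-like share of library 1 was 25.1% at a clustering resolution of 2 and 30.3% with a stricter cell filter (at least 1000 genes and at most 5% mitochondrial UMIs).

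A minority of neuroblast-like cells held most of these RNAs. After thinning, 35.0 and 20.4% of neuroblast-like cells held no UMI of the 32 genes, against 13.3 and 7.55% of activated-like and 49.8 and 28.4% of quiescent-like cells. At full depth, neuroblast-like cells with at least 10 different members were 74 of 344 (21.5%) and 184 of 470 (39.1%), and these held 93.4 and 95.4% of all member UMIs of the class. Among activated-like cells 164 (50.8%) and 289 (53.2%) had at least 10 members and held 90.3 and 92.2% of the UMIs. Among quiescent-like cells 2 and 7 had at least 10 members, and these held 5.96 and 20.5%. Near the threshold of 3 thinned UMIs, 36 and 44 neuroblast-like cells held 2 and 12 and 30 held 3, and 67 and 116 quiescent-like cells held 2 and 15 and 44 held 3.

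**Figure D3:**
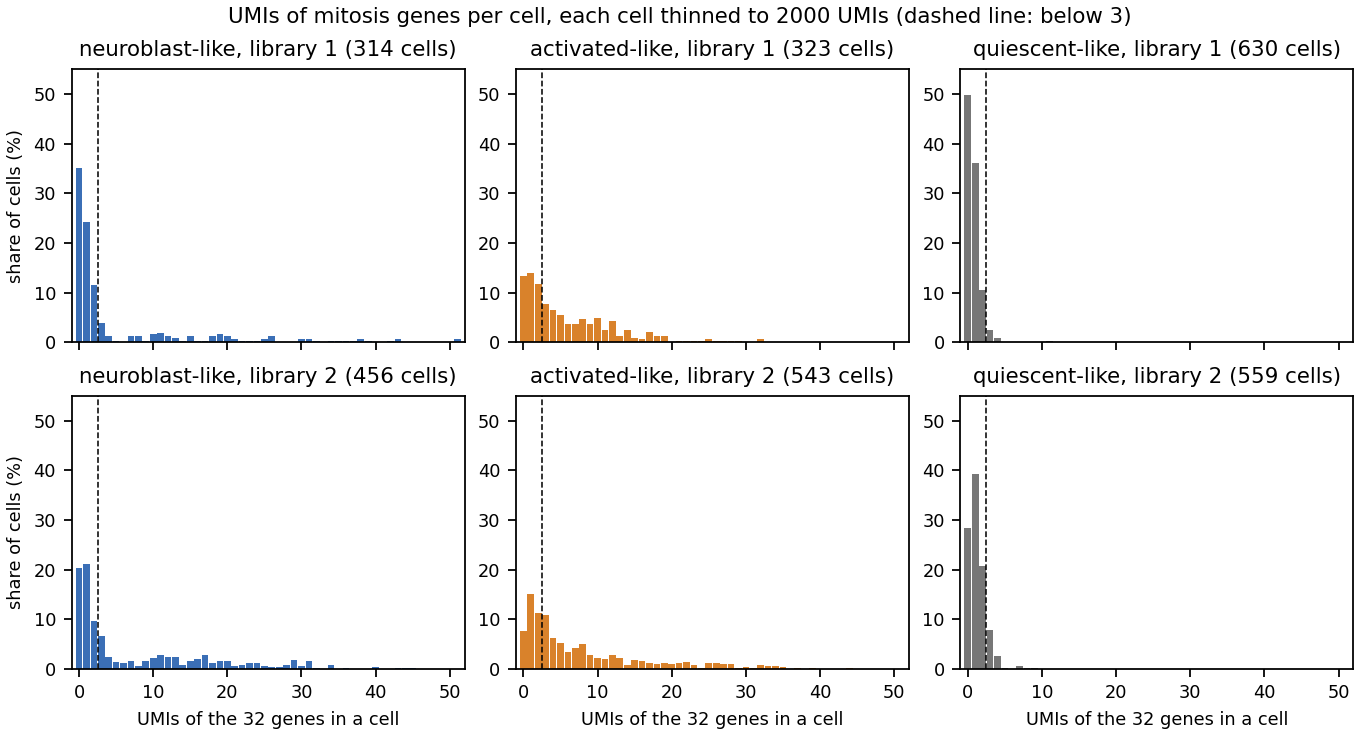
Share of cells (%) by UMIs of the 32 genes per cell after thinning to 2000 UMIs. Neuroblast-like, activated-like and quiescent-like cells run from left to right and libraries 1 and 2 from top to bottom. Neuroblast-like cells stand highest at 0 and 1 UMI (35.0 and 20.4% of cells at 0) with a long tail, activated-like cells a broad spread, and quiescent-like cells few cells at 3 or more UMIs (3.33 and 11.4%).

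The low quiescent-like level was read against oligodendrocyte-like cells, which do not divide as mature cells and remained in spite of the gate against O4. Over the 30 genes other than Nuf2 and Anln, thinned cells with at least 3 UMIs were 2.86% (1.70 to 4.48%) and 8.41% (6.24 to 11.0%) of quiescent-like cells, against 2 of 94 (2.13%, 0.259 to 7.48%) and 0 of 8 oligodendrocyte-like cells. In library 1 the intervals overlapped. In library 2 the 8 cells allow a share of up to 36.9% and set no useful limit. Summed levels of the 30 genes were 326 and 626 CPM in quiescent-like cells, against 847 and 438 CPM in oligodendrocyte-like cells. In library 1 that sum rested on 2 oligodendrocyte-like cells with 221 and 88 member UMIs, and without the 2 oligodendrocyte-like cells with the most member UMIs of each library it was 255 and 340 CPM; no quiescent-like cells were taken out of their sum. Median depths were 3507.5 and 3553.5 UMIs in quiescent-like and 4228 and 5119 in oligodendrocyte-like cells. Quiescent-like cells stood at 15.1% of the level of the 32 genes over the whole of library 1 and at 17.97% of that over library 2, where the genes made up 2368 and 3885 CPM.

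Summed over cells, neuroblast-like cells were higher than activated-like cells in these genes. With cells weighted equally this turned round in library 1 and was close to even in library 2. The median log2 ratio of the sums was 0.27 in library 1 and 0.29 in library 2, beside −0.05 and −0.01 over all genes. Of the 32, 26 and 29 were higher in neuroblast-like cells. The size depended on how the classes were drawn, with a library 1 median of 1.37 under a stricter cell filter and of 2.22 at a clustering resolution of 2, where library 2 had 0.83. None of the 32 (0 of 32) was at least 2-fold lower in neuroblast-like than in activated-like cells in both libraries, where 5.24% of all genes were. In library 1 the 6 highest ratios belonged to Ube2c at 1.31 and 0.68, Nusap1 at 1.10 and 0.82, Hmmr at 1.08 and 0.94, Cdc20 at 1.04 and 0.20, Cenpa at 0.87 and 0.27 and Ckap2l at 0.85 and 0.64, library 1 before library 2. In library 2 Hmmr came first, and Ect2 (0.67) and Tacc3 (0.58) were among the highest, while Cdc20 and Cenpa lay below the median. Genes with ratios near or below 0 included Ccnb2 and Ccna2, given above, and Cdca8 at −0.01 and 0.21, Ckap2 at 0.31 and −0.01 and Anln at −0.04 and 0.45. With every cell thinned to the same depth the median was −0.17 and −0.03, and as a mean of each cell's own CPM it was −0.37 and −0.07.

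To set the number of dividing cells aside, cells were taken as dividing when they held at least 3 UMIs, after thinning, of 58 other G2 and M phase genes that are scarce in quiescent-like cells. This rule replaced a wider list of 85 genes, which took 67.0 and 76.2% of quiescent-like cells, and was chosen after seeing the data. It took 83 (26.4%) and 192 (42.1%) of neuroblast-like cells, 143 (44.3%) and 259 (47.7%) of activated-like cells, and 3 and 15 quiescent-like cells. The quiescent-like numbers are low in part by that choice of genes and are no measure of how many of those cells divide. Dividing neuroblast-like cells held a mean of 18.2 and 16.6 UMIs of the 32 genes in 2000, against 11.0 and 13.3 in dividing activated-like cells. In cells outside the rule the means were 0.97 and 1.39 in neuroblast-like and 2.37 and 2.74 in activated-like cells. S phase RNA went the other way, with means of 12.7 and 13.9 UMIs of 60 S phase genes in dividing neuroblast-like cells, against 16.8 and 16.1 in dividing activated-like cells.

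Within dividing cells, 28 of the 32 genes had enough UMIs in both libraries. Of these, 21 were higher in neuroblast-like than in activated-like cells in both libraries, 0 were lower in both and 7 had unlike signs. The median log2 ratio was 0.69 in library 1 and 0.20 in library 2, beside −0.07 and −0.04 over all genes. The other G2 and M phase genes used to pick the dividing cells shifted the same way, with medians of 0.57 in library 1 and 0.34 in library 2. Of those measured, 30 of 38 in library 1 and 35 of 51 in library 2 were higher in neuroblast-like cells, and 8 and 16 were lower. Because these genes also picked the cells, their shift cannot show whether the higher level is particular to the 32 genes. Ube2c was 3.02-fold higher (2.33 to 3.94) in library 1 and 1.60-fold higher (1.36 to 1.88) in library 2. Nusap1 was 2.62-fold (1.84 to 3.73) and 1.68-fold higher (1.32 to 2.14), and Hmmr 1.95-fold (1.07 to 3.57) and 1.87-fold higher (1.21 to 2.90). Counting intervals lay above 1 in both libraries for 7 of the 28 genes, which were Top2a, Cenpa, Cenpf, Birc5, Hmmr, Nusap1 and Ube2c, where they did for 5.7% of all 3702 genes measured in dividing cells of both libraries. They lay below 1 in both for 0 of the 28, against 5.65% of all. Cdc20 was 2.93-fold higher (1.64 to 5.37) in library 1, while its interval in library 2 spanned 1 (1.20-fold, 0.86 to 1.67).

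**Figure D4:**
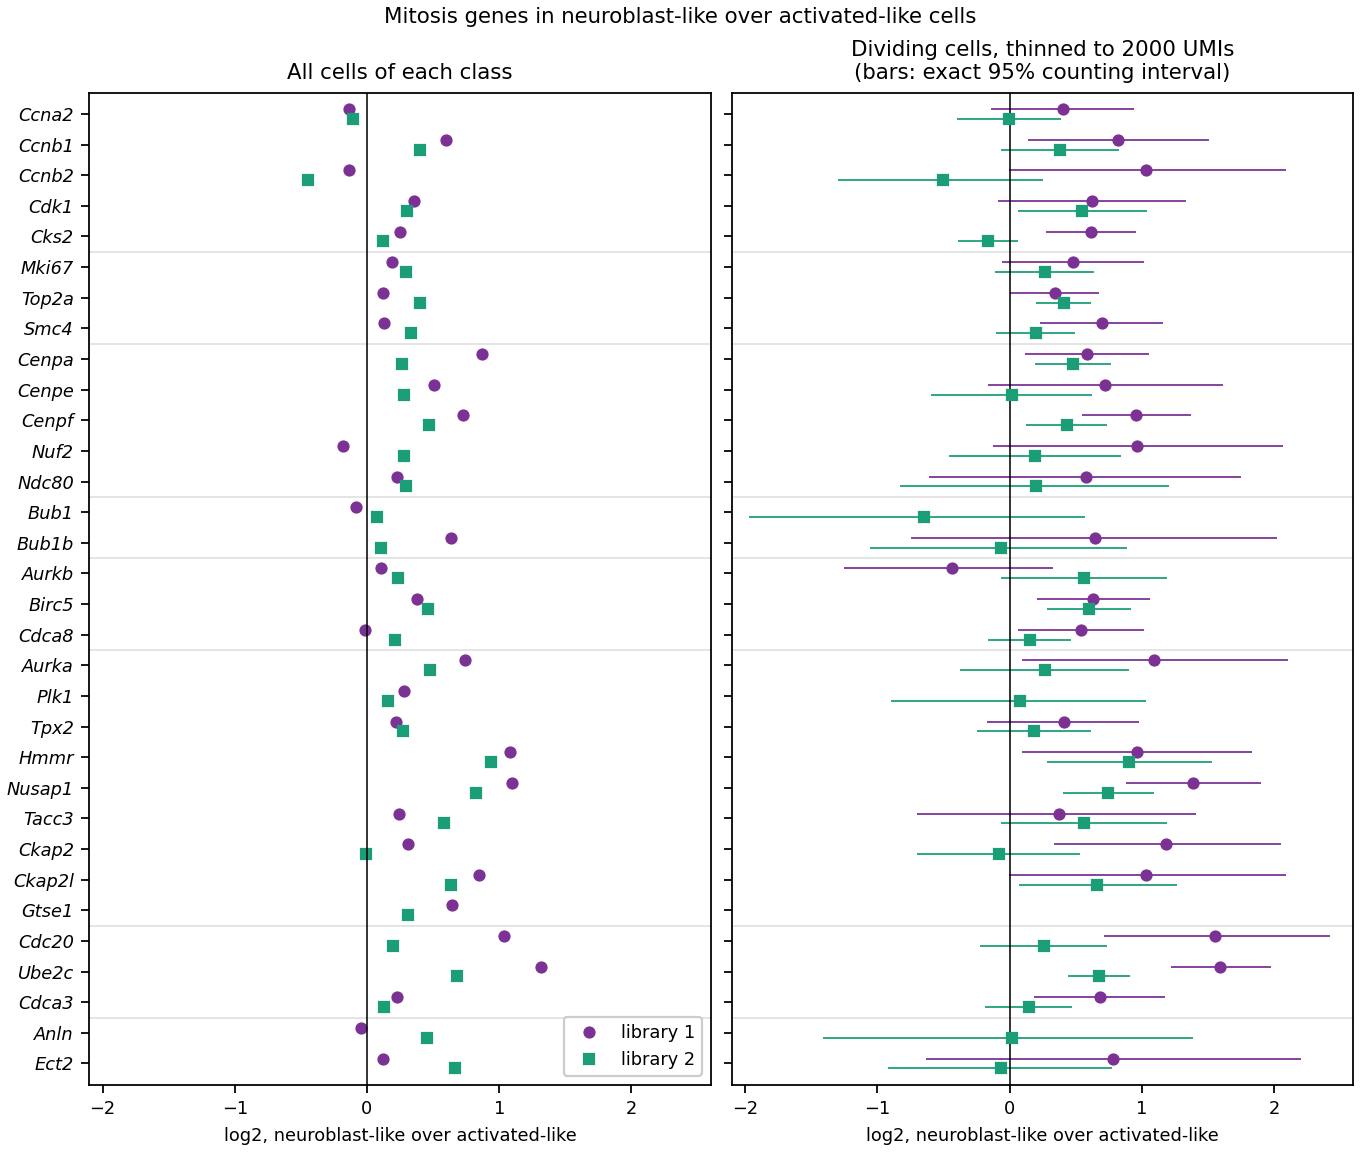
Log2 ratio of neuroblast-like over activated-like cells for each of the 32 genes in library 1 and library 2, over all cells (left) and over dividing cells thinned to 2000 UMIs with 95% counting intervals (right). Ube2c, Nusap1 and Hmmr lie to the right of 0 in both libraries and both panels.

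As a share of the UMIs of the 32 genes, Ube2c differed between dividing cells of the 2 classes. It took 10.8 (9.25 to 12.4) and 10.3% (9.29 to 11.4) in dividing neuroblast-like cells, against 5.9 (4.82 to 7.23) and 8.0% (7.16 to 9.004) in dividing activated-like cells, and the intervals lay apart in both libraries. Nusap1 took 5.6 (4.51 to 6.90) and 5.0% (4.23 to 5.77) in dividing neuroblast-like cells, against 3.6 (2.71 to 4.62) and 3.7% (3.07 to 4.36) in dividing activated-like cells, with intervals that just overlapped. Cks2 took 9.1 (7.71 to 10.7) and 8.3% (7.35 to 9.29) in dividing neuroblast-like cells, against 9.9 (8.46 to 11.5) and 11.5% (10.5 to 12.7) in dividing activated-like cells, with intervals apart in library 2 and overlapping in library 1. The intervals of Ccna2 overlapped in both libraries, at 3.5 and 3.0% in dividing neuroblast-like cells and 4.4 and 3.8% in dividing activated-like cells. Top2a had no common direction, with 8.7 and 11.9% in dividing neuroblast-like cells and 11.4 and 11.1% in dividing activated-like cells.

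The genes also differed in how much S phase RNA their cells held. In all dividing cells together, those with a UMI of a given gene were compared with those without it for their S phase UMIs, and the mean was lower with the gene for 23 of 32 genes in both libraries, higher for 3 and of unlike sign for 6. Cells with Cenpa held 11.7 and 11.5 S phase UMIs, against 17.2 and 17.5 in cells without it, the widest gap of the 32. The gaps were −3.38 and −5.17 UMIs for Cdc20, −4.62 and −4.31 for Plk1, −2.13 and −4.18 for Ccnb1, −2.89 and −4.17 for Ube2c and −2.76 and −3.93 for Cenpf. The 3 genes that went with more S phase RNA were Top2a at 2.36 and 2.16, Ndc80 at 2.47 and 2.64, and Ccna2 at 0.71 and 0.98. Within dividing neuroblast-like cells alone the gaps were 1.68 and 3.22 for Top2a and 2.68 and 4.37 for Ndc80. Within dividing activated-like cells alone they were 2.56 and 0.95 for Top2a and 2.16 and 0.80 for Ndc80. The gap of Ccna2 turned round in neuroblast-like cells of library 1, with −1.003 and 0.48 in neuroblast-like and 1.66 and 0.54 in activated-like cells. Some gaps rest on few cells with the gene. Ndc80 was found in 9 and 16 dividing neuroblast-like and 15 and 19 dividing activated-like cells. Top2a was found in 56 and 148 and in 89 and 172 of them. Plk1 was found in 17 and 35 dividing cells of all classes. These are descriptions of pooled classes, and neuroblast-like cells, which hold less S phase RNA, supply part of each group.

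**Figure D5:**
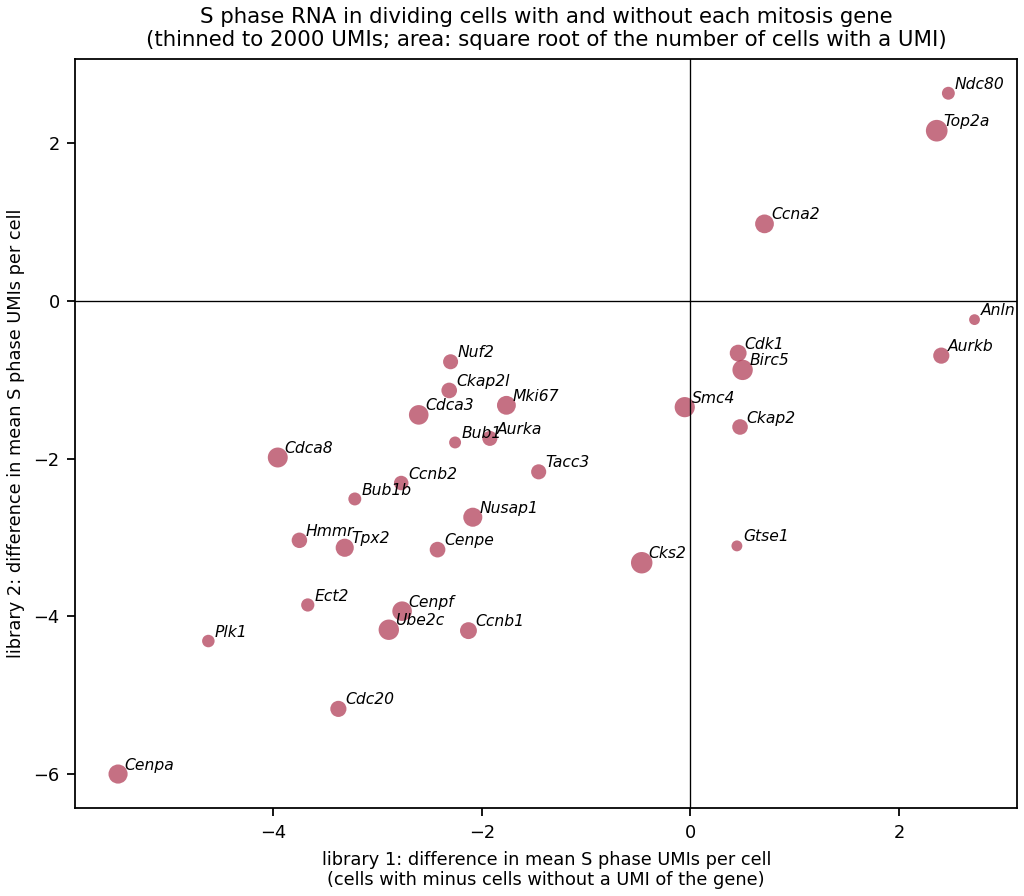
Difference in mean S phase UMIs per thinned dividing cell between cells with and cells without a UMI of each gene, library 1 on the horizontal and library 2 on the vertical axis, point area by the square root of the number of cells with the gene. Cenpa, Plk1 and Cdc20 lie furthest toward the lower left, and Top2a, Ndc80 and Ccna2 lie in the upper right.

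Across the 229 and 466 dividing cells, the Pearson correlations between the 32 genes (log2 of thinned UMIs plus 1) were mostly weak, with medians of 0.10 and 0.09 over 496 pairs, and 9 pairs reached 0.3 in both libraries. The tightest were Cks2 with Ube2c at 0.45 and 0.41, Cenpf with Ube2c at 0.44 and 0.40, and Cks2 with Cenpf at 0.41 and 0.41. The points are cells of 1 library, share its depth after thinning, and mix 3 classes, and no p is given.

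Library 1 held less of these RNAs than library 2 in each class. In neuroblast-like cells 30 of 32 genes were lower in library 1, the median log2 ratio (library 1 over library 2) being −0.30, and 0 of 32 were at least 2-fold lower, where 2.11% of all genes were. In activated-like cells 31 of 32 were lower, with a median of −0.38, and 1 of 32 was at least 2-fold lower, against 1.85% of all genes. This count depended on how the class was drawn: 28 of 32 were at least 2-fold lower with the stricter cell filter (median −1.31) and 28 of 32 at a clustering resolution of 2 (median −1.72), and 0 of 32 at a resolution of 0.5 (median −0.17). The 1 gene was Cdc20, with 46.6 CPM in library 1 and 95.1 CPM in library 2, and Ube2c (−0.90), Ccnb2 (−0.87) and Cenpa (−0.82) came next. In quiescent-like cells all 25 genes with enough UMIs were lower in library 1, with a median of −1.01, and 13 of 25 were at least 2-fold lower, against 3.44% of all genes. The count was 6 of 20 measured genes with the stricter cell filter and 6 of 18 at a clustering resolution of 2. The median ratio over all genes was 0.03, 0.05 and 0.00 in the 3 classes. The exceptions were Bub1b and Gtse1 in neuroblast-like cells, at 0.07 and 0.09, and Ndc80 in activated-like cells, at 0.01. Other cell cycle genes differed between the libraries as well. Medians of the other G2 and M phase genes measured were −0.31 in neuroblast-like, −0.22 in activated-like and −0.55 in quiescent-like cells. Those of the S phase genes measured were −0.39, 0.01 and −0.41 in the same order.

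The quiescent-like difference came with a difference in the whole library, whose level of the 32 genes was 2368 CPM in library 1 and 3885 CPM in library 2 (log2 ratio −0.71). Quiescent-like cells with 10 or more members (2 in library 1, 7 in library 2) also moved with it, and without them the median was −0.73. The part that either of these has in the quiescent-like difference was not tested. The libraries further differ in the make-up of each class by cluster, as given above, and within single clusters the level of the 32 genes was 7898 and 7772 CPM in cluster 7, 2404 and 2094 in cluster 8, 683 and 1305 in cluster 4, 4023 and 4778 in cluster 1, 2711 and 3682 in cluster 6, 295 and 514 in cluster 0 and 466 and 845 in cluster 2, libraries 1 and 2 in that order. Library 1 was lower in both activated-like and both quiescent-like clusters. In 2 of the 3 neuroblast-like clusters library 1 was not the lower one. Because age and library are the same split here and the suffixes are not tied to ages, library and age cannot be told apart.

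Other genes of the cell cycle were set beside the 32. Of 85 other G2 and M phase genes, 79 of 82 measured in library 1 and 82 of 84 in library 2 were higher in activated-like than in quiescent-like cells, with medians of 3.28 and 2.59. The checkpoint kinase gene Ttk had 22.7 and 27.5 CPM in activated-like cells, against 0.374 and 4.29 CPM in quiescent-like cells. Pttg1, securin itself, was the lowest in both at −1.55 and −1.69, with 59.3 and 55.7 CPM in activated-like cells, against 173 and 179 CPM in quiescent-like cells. Tubb4b, a tubulin of microtubules in general, was also lower, at −0.51 and −0.62. All 60 of 60 S phase genes were higher in activated-like than in quiescent-like cells in both libraries, with medians of 2.55 and 2.06.

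Neuroblast-like cells held less S phase RNA than activated-like cells. Of the 60 S phase genes, 58 were lower in library 1 and 47 in library 2, with median log2 ratios of −0.72 and −0.29. Cdc6, which loads the replicative helicase, was the lowest in library 1 at −2.45, with 5.81 CPM in neuroblast-like and 31.8 CPM in activated-like cells. Mcm2, a subunit of that helicase, was the lowest in library 2 at −1.38. Cdca7 and Pola1 (a DNA polymerase subunit) went the other way in both libraries, at 0.58 and 0.88 for Cdca7 and 0.58 and 0.31 for Pola1. The 85 other G2 and M phase genes had medians of 0.19 and 0.29, close to those of the 32.

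The APC/C, with which Cdc20 and Ube2c work, showed a smaller difference. Its 18 listed subunits and partners had median activated over quiescent log2 ratios of 0.67 and 0.54, with 14 and 15 of 18 higher, while Cdc20 stood at 2.87 and 2.58 and Ube2c at 2.62 and 2.93. The highest were Fbxo5 (Emi1, an inhibitor of the complex) at 4.18 and 2.49 and Ube2s, the chain-extending partner of Ube2c, at 2.54 and 2.25, while the subunit Anapc2 was the lowest at −0.98 and −0.68. Of 25 regulators in the MuvB, FoxM1 and E2F families, 21 of 24 and 21 of 25 were higher in activated-like cells, with medians of 1.32 and 1.27. Foxm1, an activator of G2 and M phase genes, was among the highest at 4.38 and 2.56, with 31.2 and 32.8 CPM in activated-like cells and 1.49 and 5.58 CPM in quiescent-like cells. Rbl2 (p130) and Lin37, subunits of the DREAM complex, were lower in activated-like cells, at −0.49 and −0.74 for Rbl2 and −0.60 and −0.71 for Lin37. Lin9 and E2f4, also subunits of that complex, were higher there. Lin9 had 36.9 and 34.0 CPM in activated-like cells, against 7.47 and 9.01 CPM in quiescent-like cells. E2f4 had 55.7 and 55.1 CPM in activated-like cells, against 34.4 and 23.2 CPM in quiescent-like cells. E2f5 of the same list was nearly level, with 47.5 and 39.3 CPM in activated-like cells, against 46.0 and 41.2 CPM in quiescent-like cells.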

How the data were processed

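Both 10x Genomics libraries were deposited by the authors as 1 matrix of UMI counts per gene and barcode, not normalized; reads were processed with Cell Ranger 2.0.0 against GRCm38.p3 (mm10), per the submitters' processing notes. Cells with under 500 genes or over 10% mitochondrial UMIs were removed, and doublets were called with Scrublet as run in scanpy 1.11.5 at an assumed rate of 1.5%. Cells were scaled to 10000 UMIs, and 2000 variable genes, 30 principal components and 15 neighbours went into Leiden clustering at resolution 1 (leidenalg 0.10.2), with the 32 genes and the S, G2 and M phase lists left out. A cluster was named when at least 3 markers of a class were raised 1.5-fold or more and 1 of them was among its 10 leading genes; that criterion was chosen once the clusters had been looked at. Class sums gave CPM, and a log2 ratio was taken where both sides together held at least 20 UMIs, with a floor of 3 counts for a sum of 0. Cells were thinned to 2000 UMIs for counts per cell. The procedure was tested on simulated data. The members and lists were chosen with earlier results of these data known. Full values are given for the 2 members of each role with the most UMIs and for those whose ratio went against the rest or differed in sign between libraries. Cdc20, Ccnb1, Cdk1, Mki67 and others beside them were given more briefly. Of other lists, genes were named from the 3 highest and 3 lowest ratios, except Lin9, E2f4 and E2f5, which were named outside that rule. Proteins were not used here.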

Additional observations from a re-analysis of the deposited data

Results flagged for a closer look

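Several ratios had opposite signs in the libraries; these differences were not tested. For activated-like over quiescent-like cells this held for Nuf2, with log2 ratios of 0.78 in library 1 and −0.20 in library 2. For neuroblast-like over activated-like cells it held for 5 genes. Nuf2 had −0.18 in library 1 and 0.28 in library 2, and Bub1 had −0.086 and 0.074. Cdca8 had −0.015 and 0.21, Ckap2 had 0.31 and −0.011, and Anln had −0.045 and 0.45. 

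Signal of these genes was also found in cells that entered none of the comparisons. Nuf2 had 535 CPM in the ependymal-like cells of library 1 and 319 CPM in those of library 2, from 3 and 13 cells. Cluster 5 raised no marker of its best-scoring class and stayed unnamed. It held the 32 genes at 4231 CPM in its 114 cells of library 1 and 5153 CPM in its 215 cells of library 2.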

How the results depend on the processing

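No paired analysis was possible because each age has 1 library and the matrix columns carry no replicate number. With cell cycle genes among the variable genes no cluster was named activated-like, so the values of that class could not be given. The median log2 ratio of neuroblast-like over activated-like cells turned negative with every cell thinned to 2000 UMIs, at −0.17 and −0.026, and as a mean of each cell's own CPM, at −0.37 and −0.066. The cause was not tested. In library 1 it was 1.37 with a stricter cell filter (1000 genes or more, mitochondrial UMIs of 5% or less), 2.22 at resolution 2, 0.0086 at resolution 0.5, 0.13 with seed 2 and 0.69 in dividing cells alone. In library 2 it was 0.83 at resolution 2 and 0.20 in dividing cells alone. For activated-like over quiescent-like cells the median of library 1 was 1.88 at resolution 2 and 4.24 with seed 2. In library 2 it was 3.24 with doublets kept, 3.33 with the stricter filter and 3.34 with seed 2. The count of 30 genes at least 2-fold higher lay between 22 and 30 over 9 alternatives.

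For library 1 over library 2 the activated-like median was −1.31 with the stricter filter, −1.72 at resolution 2, −0.17 at resolution 0.5 and −0.19 with seed 2. The neuroblast-like median was −0.53 as a mean of each cell's CPM. The quiescent-like median was −0.78 with doublets kept, −0.69 with the stricter filter, −0.61 with cell cycle genes among the variable genes, −0.78 with thinning and −0.73 without the quiescent-like cells that held at least 10 members.

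The share of activated-like cells with at least 3 member UMIs in library 1 was 55.2% with doublets kept, 30.3% with the stricter filter, 25.1% at resolution 2, 71.9% at resolution 0.5, 71.0% with seed 2 and 69.3% without the 1% of cells with the most UMIs. In library 2 it was 48.2% at resolution 2 and 70.7% without the 1% of cells with the most UMIs. Asking for at least 2 UMIs gave 40.8 and 58.6% of neuroblast-like, 72.8 and 77.3% of activated-like and 14.0 and 32.2% of quiescent-like cells. Asking for at least 5 gave 24.2 and 39.9% of neuroblast-like, 46.7 and 49.0% of activated-like and 0.159 and 1.07% of quiescent-like cells. Thinning to 3000 UMIs gave 47.6 and 68.0% of neuroblast-like, 66.4 and 77.7% of activated-like and 7.27 and 26.8% of quiescent-like cells. Over 30 genes without Nuf2 and Anln, the quiescent-like share of library 2 was 8.41%. The alternatives on dividing cells, on 30 genes and on quiescent-like cells with at least 10 members were chosen after seeing the data. Of the ratios of single genes, 1718 kept within 0.3 of their log2 value, 859 moved by more, and 0 of those at least 2-fold apart changed sign. Activated-like cells numbered 209 and 353 at resolution 2 and 112 and 387 with the stricter filter, against 323 and 543. Depth limits what can be said of Gtse1, Bub1, Bub1b, Hmmr, Plk1, Ndc80 and Ect2 in quiescent-like cells, each with at most 13 UMIs in a library.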

Other observations

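Unnamed clusters also differed in these genes. Cluster 11, whose leading genes include Eomes and Neurog2, both known from excitatory neuron precursors, held 39 cells, all of library 2, and 3527 CPM of the 32 genes. Cluster 12 held 11 cells of library 1 and 7 of library 2, at 4842 and 4784 CPM. Cluster 3, led by stress-response genes such as Socs3, Junb and Atf3, held 203 and 139 cells, at 621 and 1033 CPM. Oligodendrocyte precursor-like cells held the 32 genes at 334 CPM in library 1 and 716 CPM in library 2, from 16 and 31 cells.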
